A study of Arabidopsis thaliana with 12 samples.

Results

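PUCHI (AT5G18560) is a gene on chromosome 5 of Arabidopsis thaliana that encodes a transcription factor with an AP2/ERF DNA-binding domain. It was found by its name and gene identifier in the annotation of the array, which paired 1 row of the table with it. That row is 1 of 16550 genes with a name that were tested. PUCHI is expressed in lateral root primordia, the small groups of dividing cells from which new roots grow, and puchi mutants make primordia with misplaced divisions. Lateral roots begin when auxin, acting through the response factors ARF7 and ARF19, switches on LBD16 and related LBD factors in pericycle cells next to the xylem. PUCHI is itself induced by auxin and is needed for the later, ordered divisions of the primordium.

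Roots of seedlings 5 days old were profiled after 4 hours in 4 treatments, with 3 arrays for each. All 12 samples had the same genotype, 35S::LBD16:GR with the mutations arf7-2 and arf19-5, which remove both auxin response factors. LBD16 was made from the strong 35S promoter as a fusion to the glucocorticoid receptor (GR), which stays outside the nucleus until the steroid dexamethasone (DEX) is given. The groups were mock (0.1% DMSO), 2 µM DEX, 10 µM cycloheximide (CHX), and both together (DEX+CHX). CHX stops protein synthesis, so that transcripts which change with DEX under CHX do so with little new protein being made. No sample without the fusion was analysed here, so an effect of DEX itself cannot be told apart from that of the fusion. The fusion was present throughout the root and not only where native LBD16 acts. The labels give 3 independent sets of RNA and do not say whether they came from separate cultures.

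Across genes, the correlation between replicate arrays ran from 0.992 to 0.994, and that between arrays with and without CHX from 0.873 to 0.885. LBD16 stood between 9.29 and 9.67 on the log2 scale on all arrays. Whether its row reads the transgene, the native transcript or both is not known here. LBD16 was not called with DEX, either without CHX (-0.17, limma adjusted p = 0.563, every DEX array below every mock array) or with it (-0.09, adjusted p = 1). The number of arrays limits the precision. Of 20 marker genes for root and shoot cell types, 3 were measured. Here and below, a gene counts as measured if the annotation paired a row with it alone. Genes not measured in this sense may still be among the rows that were unnamed or paired with several genes. The root hair expansin EXPA7 stood at 7.42 to 8.67, the shoot gene RCA (rubisco activase) at 6.24 to 7.75 and PORB, a chlorophyll synthesis enzyme of shoots, at 3.96 to 6.03, so the root label rests on few markers. None of the 3 was called with DEX, where 1.52% of all genes were called without CHX and 0.592% with it. The EXPA7 arrays did not overlap in either comparison (0.41 without CHX and -0.26 with it). Without CHX the RCA arrays did not overlap either (-0.41), and PORB stood at -0.60 with overlapping arrays. Here and for the other genes, 3 arrays that do not overlap 3 others give an exact permutation p of 0.1. The share of all genes without overlap is not given, so a lack of overlap alone does not set a gene apart. With CHX alone EXPA7 (-0.40) and RCA (-0.87) fell, in a comparison that called 54.9% of all genes. PORB stood at 0.59 there (limma adjusted p = 0.0636), and passed the threshold in 10 alternatives, among them the fit to just the mock and CHX arrays (0.0189) and quantile normalization (0.00235). Their part in the results for PUCHI was not tested.

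PUCHI was lowest in mock roots and highest where DEX and CHX were combined, with the roots given a single drug in between. Of these, CHX passed the threshold against mock and DEX did not. In mock roots its log2 values were 3.15, 3.68 and 3.38 in replicates 1, 2 and 3. With DEX they were 3.87, 3.57 and 3.96. With CHX they were 4.13, 4.01 and 3.80. With DEX+CHX they were 5.61, 5.33 and 4.93, and every one of these exceeded every other array. The DEX and mock arrays overlapped, because replicate 2 of DEX lay below replicate 2 of mock, and so did the DEX and CHX arrays. The CHX arrays lay just above the mock arrays, the lowest CHX value exceeding the highest mock value by 0.11.

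**Figure D1:**
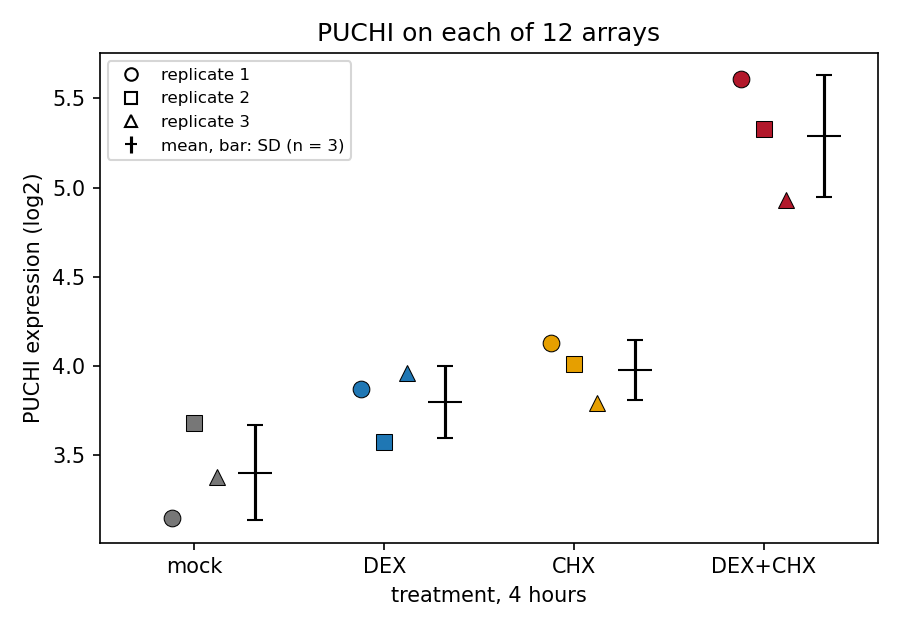
Log2 expression of PUCHI (vertical axis) on each array of the 4 treatments (horizontal axis); the symbols mark the replicate number and the bars the mean and SD of 3 arrays. The 3 DEX+CHX arrays lie at 4.93 or above, and the other 9 at 4.13 or below.

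Mock roots had a mean of 3.40 ± 0.27 (SD, n = 3). The mean was 3.80 ± 0.20 after DEX, 3.98 ± 0.17 after CHX and 5.29 ± 0.34 after both. As antilogs these are intensities of 10.6, 13.9, 15.8 and 39.1. Of the neighbours in this order, DEX and CHX did not differ beyond their spread (0.18 ± 0.19 SE, limma adjusted p = 0.454), while 55.4% of all genes were called in that comparison. With quantile normalization PUCHI too was called there (0.63, adjusted p = 0.01). DEX and mock did not pass the threshold either. DEX+CHX stood above each of the other groups. Of the sum of squares of the 12 values, 49.0% lay between arrays with and without CHX, 33.6% between arrays with and without DEX, 9.58% in the combination of both and 7.89% within treatments.

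These are readings from the dim end of the array. PUCHI stood at or above 19.1 to 24.7% of the genes tested on the mock arrays and 38.3 to 45.8% on the DEX+CHX arrays. Its mean over all arrays (4.12) fell in the dimmest 30% of genes, which reached up to 4.15. No detection call was used here, so a value near 3.4 cannot be told from background, and the size of a fold change from such a value is uncertain. The SD of PUCHI within treatments was 0.254, against a median of 0.247 over the 4965 dimmest genes and 0.180 over all genes. Its spread was thus typical of genes read at this level. In whole roots, fewer cells with PUCHI and less PUCHI RNA in each cell cannot be told apart.

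The comparison of DEX+CHX with CHX asked whether PUCHI responds to the activated fusion when protein synthesis is blocked. PUCHI rose 2.48-fold (95% interval of the fit 1.87 to 3.29). On the log2 scale this was 1.31 ± 0.19 SE, with 3 arrays per group (limma adjusted p = 0.00614 over all genes). Arrays with the same replicate number differed by 1.48, 1.32 and 1.13, and the lowest DEX+CHX array exceeded the highest CHX array by 0.80. Of all genes, 98 (0.592%) were called in this comparison, and 91 (0.55%) were called higher. The rise of PUCHI ranked 33rd in size among those 91. Among the dimmest genes 16 of 4965 (0.322%) were called, 14 of them higher, and PUCHI ranked 7th of the 14. The median change of all genes was -0.01. The call was kept with the replicate number as a block (limma adjusted p = 0.021) and with any 1 array left out. It ended when a replicate number was left out of all 4 treatments, which leaves 2 arrays per group. The difference was then 1.23 (adjusted p = 0.122) without replicate 1, 1.31 (0.182) without replicate 2 and 1.40 (0.0904) without replicate 3.

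The comparison of DEX with mock asked the same while proteins could be made. PUCHI stood 1.32-fold higher (95% interval 0.992 to 1.75; log2 difference 0.40 ± 0.19 SE, n = 3 per group). This did not pass the threshold (limma adjusted p = 0.498), in a comparison that called 252 genes (1.52%). Of the 9 pairs of a DEX and a mock array 8 had the higher value with DEX, and same-numbered arrays differed by 0.72, -0.11 and 0.58. The interval runs from no change to a rise of 0.81, so a small response was not detectable with these arrays, and one as large as that seen under CHX lay outside it.

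The 2 DEX effects were then compared and averaged. The effect under CHX exceeded that without CHX by 0.91 on the log2 scale (SE 0.26; 95% interval 0.33 to 1.49). Its unadjusted p was 0.0051, which ranked 220th among all genes, and its limma adjusted p was 0.384. The interaction was called for 21 genes (0.127%), and PUCHI was not among them. Averaged over roots with and without CHX, DEX raised PUCHI by 0.85 ± 0.13 SE (adjusted p = 0.00493), where 283 genes (1.71%) were called. An exact two-sided permutation of the DEX labels within the arrays with and without CHX gave p = 0.01 for this average, with 400 arrangements and a smallest possible p of 0.005. Taken singly, 3 arrays against 3 cannot go below an exact p of 0.1, and these permutation tests gave p = 0.1 with CHX and p = 0.2 without. The call of the average ended when replicate 1, 2 or 3 was left out of all treatments (adjusted p = 0.0996, 0.0672 and 0.0697).

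**Figure D2:**
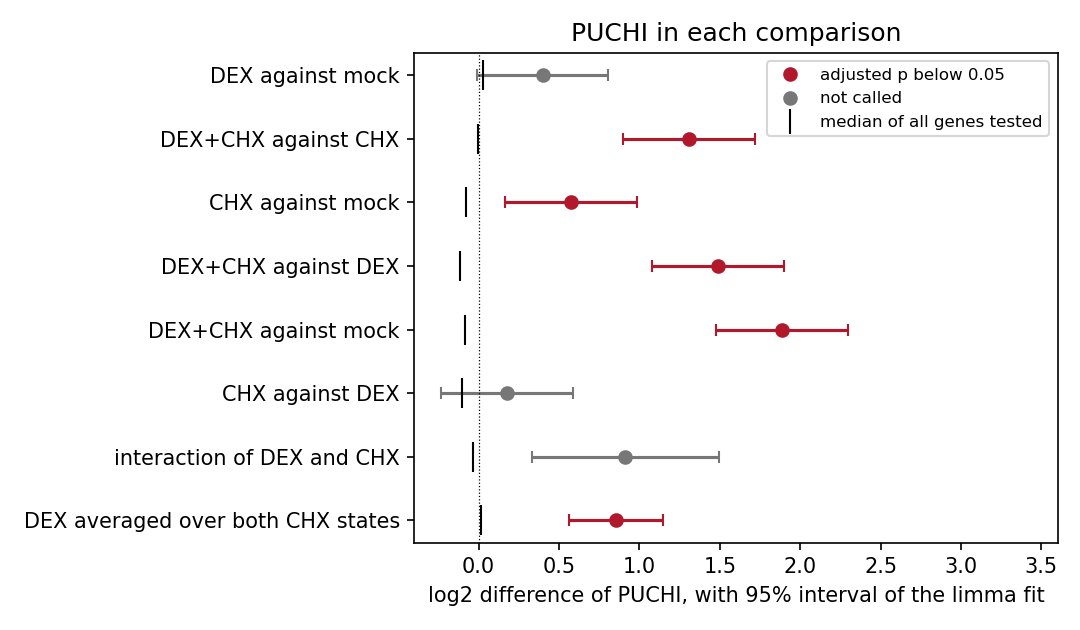
Log2 difference of PUCHI (horizontal axis) in 8 comparisons (vertical axis), with the 95% interval of the limma fit; red points passed an adjusted p of 0.05 and upright ticks mark the median of all genes tested. The rise with DEX was 1.31 under CHX and 0.40 without it.

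CHX alone went with a small rise of PUCHI. It stood 1.49-fold higher with CHX than with mock (log2 difference 0.58 ± 0.19 SE, limma adjusted p = 0.0204). CHX called 9088 genes (54.9%), 4002 of them higher, so a call in this comparison is common, although among the dimmest genes 19.0% were called. Those called higher were 24.2% of all genes, and those called lower 30.7%. The median of all genes moved by -0.08 with CHX, and PUCHI lay 0.65 above that median. The call was sensitive to single arrays. It ended without replicate 1 of mock (0.45, adjusted p = 0.0848), replicate 1 of CHX (0.50, 0.0728), replicate 2 of CHX (0.56, 0.0536) or replicate 3 of mock (0.56, 0.0516), and without replicate 1 of all treatments (0.37, 0.177). It also ended when each array was centred on its median (0.46, adjusted p = 0.0597). With quantile normalization the difference was 0.98 (adjusted p = 0.000541). That scaling moved the median of all genes with CHX from -0.08 to 0.23, and centring moved it to -0.20. The called genes that were higher made up 44.0% as deposited, 64.3% with quantile normalization and 36.3% with centring. Relative to these medians PUCHI stood 0.65, 0.75 and 0.65 higher. Centring shifts all genes of an array alike, so its value had to equal the one as deposited and is no separate check.

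In roots given DEX, adding CHX raised PUCHI 2.80-fold (log2 difference 1.49 ± 0.19 SE, adjusted p = 2.45e-05), where 9235 genes (55.8%) were called. Between mock and DEX+CHX it rose 3.70-fold (1.89 ± 0.19, adjusted p = 3.16e-06), a comparison that called 9079 genes (54.9%). Both calls were kept under every alternative run. All of these comparisons share arrays, the 2 with CHX against mock and DEX against mock sharing the mock arrays, so they are not separate evidence.

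The combination of calls for PUCHI was higher with DEX under CHX, not called with DEX alone, higher with CHX alone, higher with CHX in the presence of DEX, and no interaction. It shared this combination with 19 other genes. Of the 91 genes higher with DEX under CHX, 47 were also called with DEX alone and 44 were not, where 1.52% of all genes were called with DEX alone. Of the 44, 22 were called higher with CHX alone, 13 lower and 9 neither, where 24.2% of all genes were called higher and 30.7% lower. The difference from these shares was not tested. PUCHI was 1 of the 22. The interaction was called for 5 of the 44, and for 0.127% of all genes. The 44 were chosen as called with DEX under CHX and not without it, which itself favours a call of the interaction.

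**Figure D3:**
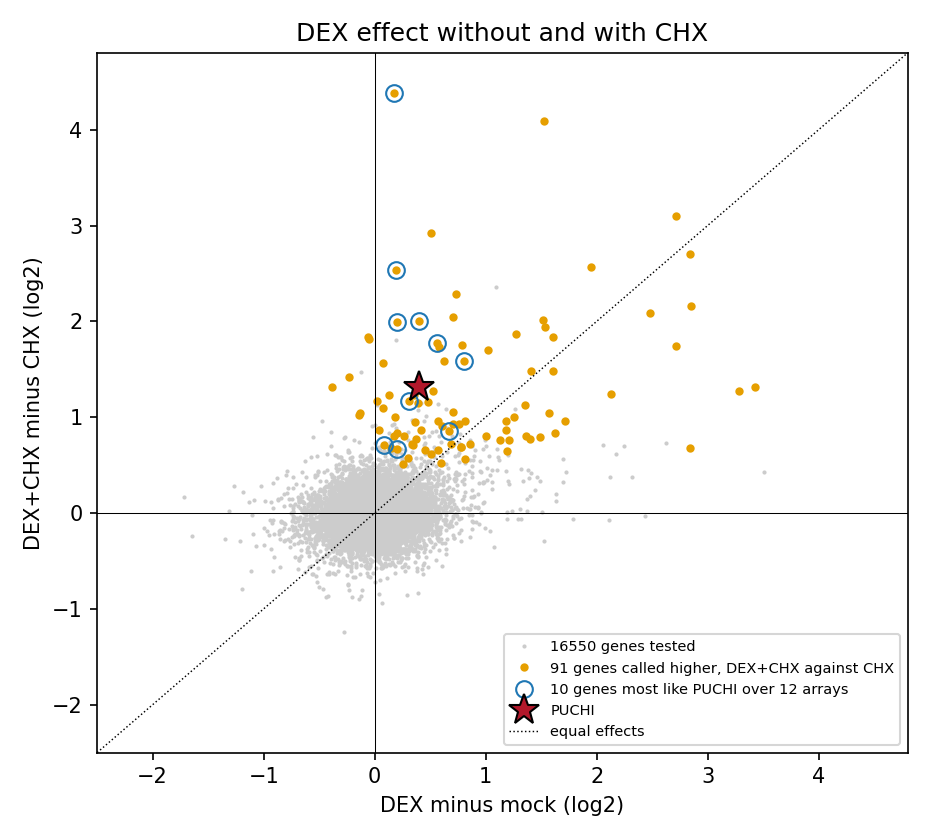
Change with DEX without CHX (horizontal axis, log2) and with CHX (vertical axis, log2) for 16550 genes; orange points were called higher under CHX, circles mark the 10 genes whose values were most like those of PUCHI, and the star is PUCHI. PUCHI lies above the dotted line of equal effects, at 0.40 and 1.31.

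The genes whose values ran most like those of PUCHI were found by Pearson's correlation over the 12 arrays. All of them share the treatments of the arrays, so the coefficients describe these 12 arrays and carry no p. The highest were those of SWEET8, a member of the SWEET family of sugar transporters (r = 0.963), AT5G59990 (0.954), AT1G12600 (0.942), SCRL26, a small cysteine-rich secreted peptide (0.941), and AT4G18450 (0.939). AT3G16660 (0.937), AT3G58830 (0.935), AT4G03450 (0.933), AT1G61667 (0.933) and AT5G01760 (0.924) followed. The median r over all genes was -0.17, and 23 genes exceeded 0.9. The list depends on the measure, since 1 of the 10 genes was also among the 10 highest by Spearman's rank correlation, while 9 remained without the dimmest genes and 6 to 10 with 1 array left out. The lowest was 6, without replicate 2 of mock.

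SWEET8 had the highest Pearson correlation with PUCHI, but ranked 141st by Spearman's, where AT1G12600 ranked highest of the 10. Its log2 values were 3.27 to 3.65 in mock roots, 3.64 to 3.94 after DEX, 4.03 to 4.40 after CHX and 5.92 to 6.72 after both. Its rise with DEX under CHX was 2.01 ± 0.20 SE (limma adjusted p = 0.000287), and without CHX it stood at 0.40 (adjusted p = 0.531), as PUCHI did. The interaction of SWEET8 did not pass the threshold (1.61, adjusted p = 0.0638), but did with quantile normalization (adjusted p = 0.047) and without replicate 1 (0.048) or 2 (0.0493) of DEX+CHX. The 10 genes differed widely in size. Their rises with DEX under CHX ran from 0.67 for AT1G12600 to 4.39 for SCRL26 and all 10 were called there, a count that the choice by likeness on the same arrays used. AT4G18450 was the 1 gene of the 10 that was also called with DEX alone (0.81 ± 0.15, adjusted p = 0.0163), a call that ended without replicate 1 (0.0734) or 3 (0.0525) of DEX. In 7 of the 10 the combination of calls was that of PUCHI, which 20 of all 16550 genes held, PUCHI included. The choice by likeness on the same arrays shaped this count too. The call of AT5G59990 under CHX (0.85, adjusted p = 0.0303) ended in 14 of 23 alternatives, among them the replicate number as a block (adjusted p = 0.0543) and the fit to just the CHX and DEX+CHX arrays (0.0718). Of the other smaller rises, the call of AT1G12600 ended in 5 of 23 alternatives. These were the fit to just the arrays compared (adjusted p = 0.114), replicate 3 of CHX left out (0.0604) and each replicate number left out of all treatments (0.294, 0.351 and 0.133). That of AT3G58830 ended in 8 of 23, among them the fit to just the arrays compared (0.152), each replicate number left out (0.319, 0.407 and 0.149), and without replicate 1 (0.071), 2 (0.0719) or 3 (0.0866) of CHX or replicate 2 of DEX+CHX (0.0614).

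**Figure D4:**
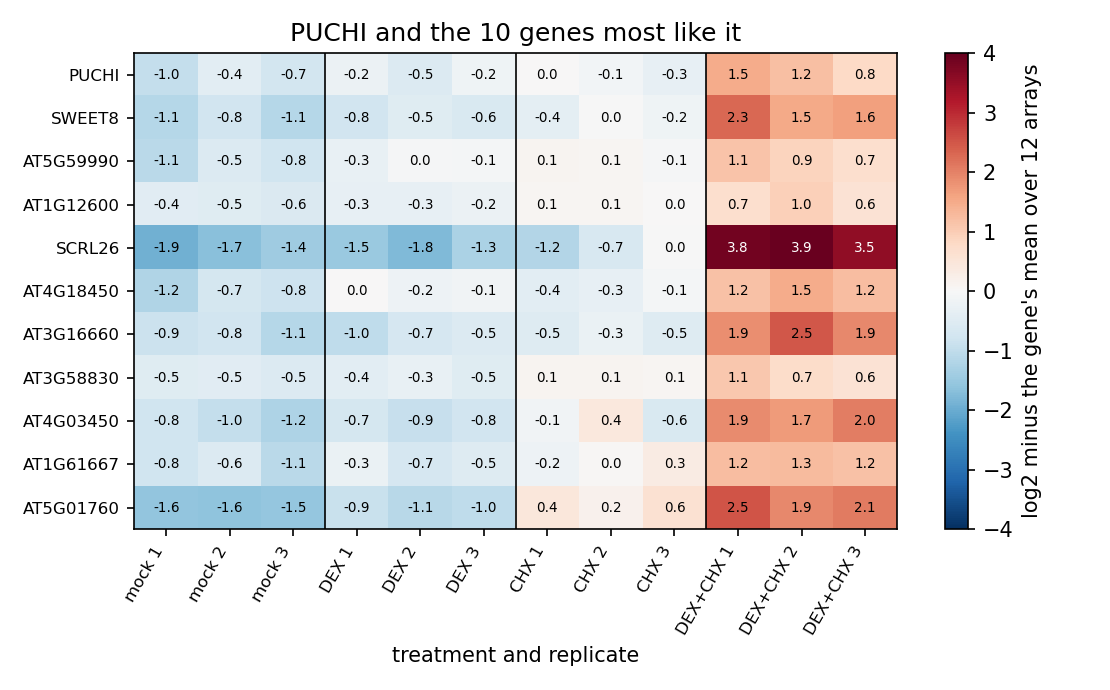
Log2 values minus the mean of each gene over 12 arrays (colour and printed number) for PUCHI and the 10 genes most like it (rows), on every array (columns, by treatment and replicate). In all 11 rows the 3 DEX+CHX arrays hold the highest values.

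The genes least like PUCHI were AT3G32200 (r = -0.929), CSLC12, a cellulose synthase-like protein (-0.908), AT4G34920 (-0.900), AT4G36640 (-0.897) and AT5G66520 (-0.893). None of the 5 was called with DEX, without CHX (1.52% of all genes) or with it (0.592%), a count near those shares. With CHX alone 4 of the 5 fell, where 30.7% of all genes were called lower. The largest fall was that of AT4G36640 (-0.57), and AT3G32200 was not called (-0.17). The 5 were chosen as least like PUCHI on the same arrays, which shaped this count, so it is a description and no result about them. With quantile normalization the calls of CSLC12 and AT4G34920 ended (adjusted p = 0.277 and 0.127), and AT5G66520 turned from -0.32 to 0.12. The call of AT5G66520 (adjusted p = 0.0458) was not kept in 15 of 22 alternatives, among them the replicate block (0.0533) and the fit to just the mock and CHX arrays (0.0927). Single arrays that ended it were replicates 1 (0.156) and 3 (0.0871) of mock, 1 (0.107) and 2 (0.182) of CHX, 1 (0.0536), 2 (0.0581) and 3 (0.0539) of DEX, and 2 (0.0534) and 3 (0.0562) of DEX+CHX. Once the mean of each treatment was taken away, the genes that varied most like PUCHI between replicates were others, namely AT5G17760 (r = 0.951), AT1G56060 (0.935), AT5G54870 (0.905), AT1G43000 (0.904) and AT4G18422 (0.903). None of these 5 was called with DEX in either comparison, again a count near the shares of all genes. LBD16 correlated with PUCHI at 0.210 over the arrays.

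The closest relatives of PUCHI in the ERF family were described next, from a list of 6 loci besides PUCHI, of which 4 were measured. None of the 4 was called with DEX, without CHX (1.52% of all genes) or with it (0.592%), so that a count of 0 among 4 genes does not set them apart from other genes. Their median change under CHX was 0.17, against -0.01 for all genes. LEP (LEAFY PETIOLE), a relative that acts in leaf development, had about the same level with and without DEX. It stood at 9.31 ± 0.31 (SD, n = 3) with mock and 9.30 ± 0.07 with DEX, and at 6.81 ± 0.26 with CHX and 7.03 ± 0.20 with DEX+CHX. Its arrays with and without CHX did not overlap, and its log2 difference with CHX alone was -2.51 (SE 0.17, limma adjusted p = 1.3e-07), where that of PUCHI was 0.58. The difference between these 2 genes was not tested.

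The other 3 relatives are given by locus, as in the tables used here. AT1G12890 rose with CHX alone (1.33 ± 0.23, adjusted p = 0.000388), from 3.64 ± 0.14 to 4.97 ± 0.12, and stood at 5.02 ± 0.44 with DEX+CHX. Its DEX difference under CHX was thus 0.05, where that of PUCHI was 1.31. AT1G80580 fell with CHX alone (-0.47, adjusted p = 0.0252), a call that ended in 7 of 22 alternatives, and AT1G28160 was not called (-0.31, adjusted p = 0.0777). With DEX under CHX they stood at 0.26 and 0.12. A search of the gene table for names of the wider AP2/ERF family returned 44 genes, of which DREB2C, a factor of the drought-response group, was measured. The search read symbols and synonyms alone and returned neither PUCHI nor its measured relatives. It thus missed members of the family, and other measured genes, also ones named above, may belong to it. The values of DREB2C therefore do not stand for the family. DREB2C rose by 4.73 with CHX alone (adjusted p = 2.16e-09), from values of 4.54 to 5.18 with mock to 9.25 to 9.85. With DEX it stood at -0.01 without CHX and 0.05 with CHX.

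**Figure D5:**
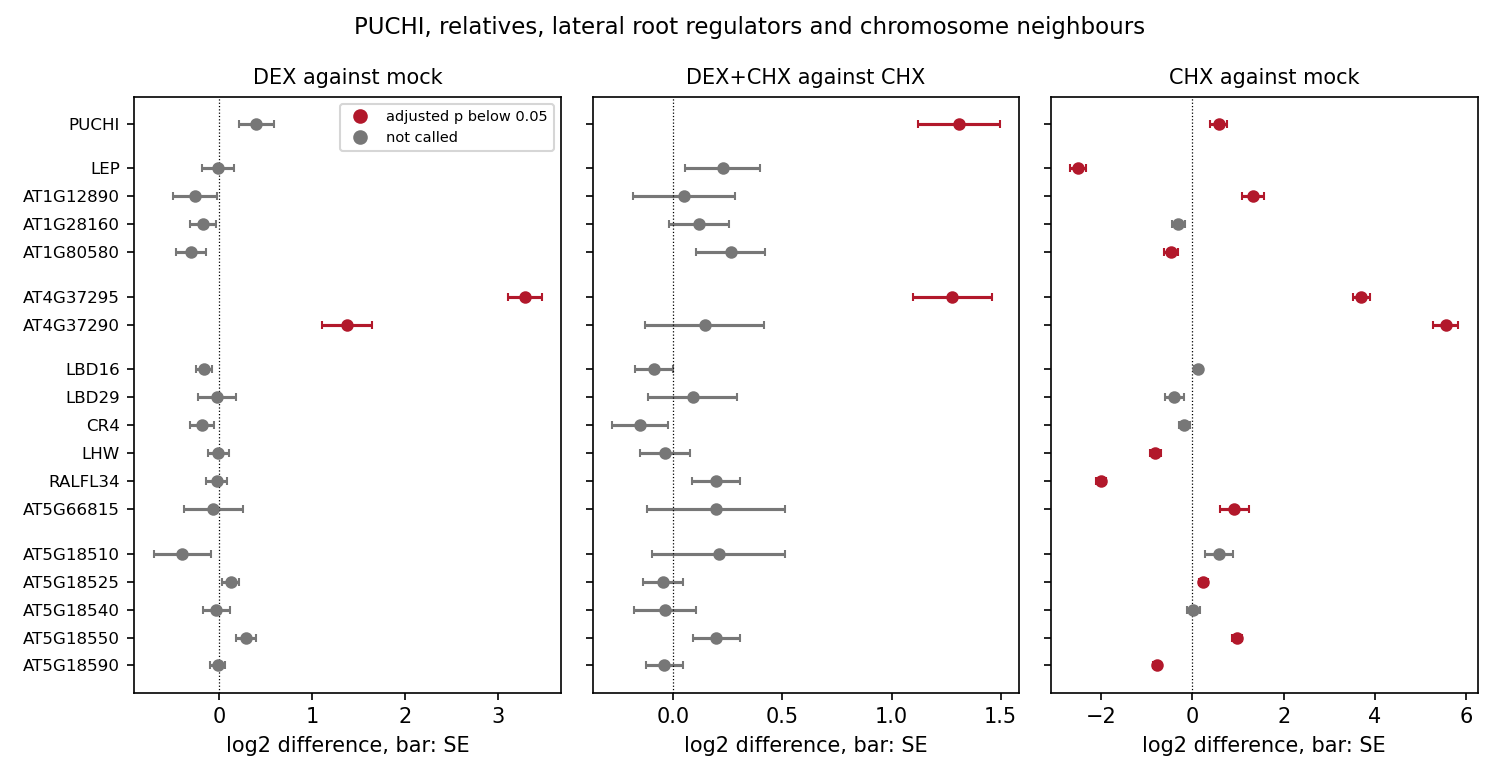
Log2 difference with its SE (horizontal axis) in 3 comparisons (panels, each with its own scale). The rows are PUCHI, its measured relatives, 2 loci linked to it other than by position, lateral root regulators and chromosome neighbours. Red points passed an adjusted p of 0.05. With DEX under CHX, PUCHI and AT4G37295 are the red points.

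Among other lateral root regulators, 7 of 25 listed were measured. With DEX under CHX 1 of the 7 was called, AT4G37295, where 0.592% of all genes were called. The list was chosen with earlier results of these data known, so this count is a description and no evidence about the regulators. The rise of AT4G37295, 1.28 ± 0.18 (limma adjusted p = 0.00583), may be set beside the 1.31 of PUCHI. Like that of PUCHI, its call ended without replicate 1 (adjusted p = 0.231) or replicate 2 (0.182) of all treatments. AT4G37295 read 4.61, 4.86 and 4.15 in mock roots, 7.89, 7.95 and 7.64 after DEX, 8.40, 8.25 and 8.05 after CHX, and 9.74, 9.52 and 9.28 after both. No 2 of its groups overlapped in either DEX comparison, and it was also called with DEX alone (3.29 ± 0.18, adjusted p = 2.63e-06). Its interaction was -2.01 (adjusted p = 0.0076), against 0.91 for PUCHI, which was not called. AT4G37290 was listed with it among loci linked to PUCHI, a link that is not one of position on the chromosome. AT4G37290 rose with DEX alone (1.37 ± 0.27, adjusted p = 0.0292) and stood at 0.14 under CHX. That call ended without replicate 2 of mock (adjusted p = 0.0782) or of DEX (0.107), and without replicate 3 of mock (0.116) or of DEX (0.0988). CHX alone raised it by 5.55.

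The other 6 listed regulators were not called with DEX, without CHX (1.52% of all genes) or with it (0.592%), a count near those shares. LBD29, an LBD factor of lateral root initiation that lies downstream of ARF7 and ARF19, stood at -0.02 without CHX and 0.09 with it. ACR4, listed as CR4, a receptor kinase that restricts the formative divisions of the pericycle, stood at -0.19 and -0.15, its DEX arrays all below its mock arrays. RALFL34, a peptide of the RALF family that acts in lateral root initiation, stood at -0.03 and 0.20, its DEX+CHX arrays all above its CHX arrays. LHW, a bHLH factor of the stele, stood at -0.01 and -0.04. With CHX alone RALFL34 fell by 2.00 and LHW by 0.81, while AT5G66815 rose by 0.92, from a mean of 1.81 to 2.73. Both of these means lie below that of PUCHI in mock roots, a level that cannot be told from background. The call of AT5G66815 ended without replicate 1 of CHX (0.56, adjusted p = 0.117) or replicate 2 (0.0721) or 3 (0.0729) of mock. PUCHI has been tied to the synthesis of very-long-chain fatty acids during lateral root growth, and none of the 19 genes listed for that pathway was among the named rows, so nothing can be said of it here.

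Of the 5 annotated genes on each side of PUCHI on the chromosome, 5 of 10 were measured. None of the 5 was called with DEX, without CHX (1.52% of all genes) or with it (0.592%), a count near that share. AT5G18550 is next to PUCHI in the gene order. It stood at 8.24 ± 0.07 (SD, n = 3) in mock roots, 8.52 ± 0.06 after DEX, 9.21 ± 0.17 after CHX and 9.41 ± 0.13 after both, and its arrays did not overlap between groups in either DEX comparison. Its differences with DEX were 0.28 (adjusted p = 0.335) and 0.20 (adjusted p = 1). With CHX alone AT5G18550 rose by 0.97 (adjusted p = 7.76e-06) and AT5G18525 by 0.24 (adjusted p = 0.0465), the latter a call that ended in 15 of 23 alternatives. AT5G18590 fell (-0.77, adjusted p = 6.96e-06), and AT5G18510 (0.58) and AT5G18540 (0.02) were not called.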

How the data were processed

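The authors deposited 1 table of processed log2 values for 12 Affymetrix arrays, which per the submitters' processing notes came from Affymetrix Expression Console 1.3. How probes were summarized and normalized, and on which genome build, is not stated there. The log2 scale was taken from the values, which ran from 0.426 to 13.98. Of 38408 rows, 16722 were paired with 1 gene by the platform annotation, 759 with several and 20927 were unnamed there. They gave 16550 genes, each read from its brightest probe set. Symbols came from RefSeq TAIR10.1 (16411 genes matched).

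With R 4.3.3 and limma 3.58.1, lmFit and eBayes were run on all 12 arrays with a mean for each treatment, two-sided tests and Benjamini-Hochberg adjustment over all genes. Calls needed an adjusted p below 0.05. The method was tested on simulated data. PUCHI and the gene lists were chosen with earlier results of these data known. Named are all measured members of the lists, called AP2/ERF genes found by name, and the 10 most like and 5 least like PUCHI, with 5 more by deviations. The p-values measure the spread between arrays, which may be technical. Same-numbered arrays of CHX and DEX+CHX deviated together (correlations 0.244, 0.157 and 0.332 across genes), which was taken as pairing there from the data. For mock and DEX these were 0.0728, 0.0533 and 0.227, so the ranges overlap and the reading is uncertain. The main fit did not use any pairing, and the replicate block was run as an alternative. Alternatives were the replicate block, other normalizations, filters, probe set and variance choices, and arrays left out. No sequence is shown, since none was given.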

Additional observations from a re-analysis of the deposited data

Results flagged for a closer look

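For 3 of the named genes the DEX effect with CHX differed from that without it by the interaction test. For SCRL26 the difference was 4.21 on the log2 scale (limma adjusted p = 0.000403). For AT3G16660 it was 2.34 (adjusted p = 0.00255). Both are among the 10 genes most like PUCHI, and both were higher under CHX. For AT4G37295 it was -2.01 (adjusted p = 0.0076), with the larger rise where CHX was absent. With a replicate number left out of all treatments, the interaction missed the threshold for AT4G37295 without number 1, 2 or 3 (adjusted p = 0.196, 0.215 and 0.0992), for AT3G16660 likewise (0.128, 0.0905 and 0.118) and for SCRL26 without number 2 (0.128).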

How the results depend on the processing

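PUCHI kept its direction in all 8 comparisons under every alternative run. Its rise with DEX under CHX was 1.15 to 1.49 on the log2 scale and lost its call when replicate 1, 2 or 3 was left out of all treatments (1.23, 1.31 and 1.40), as did the average DEX effect (0.73, 0.98 and 0.85). For CHX against mock the range with arrays left out was 0.37 to 0.72 and the value centred on array medians, no longer called, was 0.46. CHX against DEX was called with quantile normalization (0.63). The replicate block changed no call for PUCHI (DEX under CHX 1.31, adjusted p = 0.021). Where the numbers were read as pairs it changed no call of a named gene other than AT5G59990, and elsewhere it called EXPA7 with DEX alone (adjusted p = 0.0447), PORB with CHX alone (0.00977) and LBD16 with CHX in the presence of DEX (0.0443), and ended the call of AT5G66520 with CHX alone (0.0533).

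Counts of called genes moved more. With just the arrays compared, DEX called 130 genes and DEX under CHX 61. With all rows tested, CHX called 23040, CHX in the presence of DEX 23549 and the interaction 32, and a trended, robust variance gave 53 interactions. With 1 array, or 1 replicate number, left out, counts ranged from 61 to 229 for DEX, 27 to 98 for DEX under CHX and 2 to 23 for the interaction. The cause was not tested beyond the smaller number of arrays or larger number of rows. Quantile normalization reversed CHX in the presence of DEX for AT1G28160 (0.43), CR4 (0.34) and AT3G32200 (0.058), and CHX alone for AT5G66520 (0.12). Of 4644 values of other named genes, 4471 kept their side of the threshold, 129 lost a call, 40 gained one and 4 reversed. Low readings without a known background limit what can be said of PUCHI without CHX.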
